A study of Mus musculus with 4 samples.

Results

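The genes described here are 10 mouse genes whose products mark states of tumour-associated macrophages: Arg1, Mrc1, Chil3 and Retnla of the M2-like or alternatively activated state, Trem2, Spp1 and Gpnmb of the lipid-associated state, Nos2 of the M1-like or classically activated state, and the receptor gene Csf1r and the pore-forming protein gene Mpeg1 of macrophages in general. They were taken by name, though with earlier results of these data known, and all 10 were found among 48526 gene identifiers. The libraries came from liver tumours of C57BL/6 mice. AKK mice (AKK 1 and AKK 2) received 5000000000 colony-forming units of the gut bacterium Akkermansia muciniphila by mouth, and PBS mice (PBS 1 and PBS 2) received phosphate-buffered saline instead. Every animal was also on a diet deficient in methionine and choline (MCD), which gives fatty liver, from 2 weeks after the start of feeding, and after 2 weeks of it had RIL-175 hepatoma cells carrying luciferase placed in the liver. Feeding stopped for 6 days after the operation and then went on to the end. The tumours were therefore grafts of a single line, and no age or sex of the animals is stated. The labels call the libraries of a group biological replicates but do not say that they came from separate mice, and the p-values therefore describe the variation among these 4 libraries, which may be technical.

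As background, macrophages in tumours depend on signals through the receptor CSF1R and take on states that depend on the cytokines and lipids around them. Interleukin 4 and interleukin 13 act through STAT6 to raise arginase 1 and other genes of the alternative state, while interferon gamma and microbial products raise the inducible nitric oxide synthase, which competes with arginase for arginine. Cells that clear lipid, in fatty liver and in tumours, are known for TREM2, osteopontin (the product of Spp1) and the glycoprotein encoded by Gpnmb. Several of these genes are also made outside macrophages: hepatocytes make arginase 1, the endothelium of liver sinusoids makes the mannose receptor, and cells of the bile ducts and many carcinomas make osteopontin. In bulk tumour RNA, fewer cells of a type and less RNA per cell cannot be told apart.

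The 4 libraries held 48912489 to 59027227 reads on genes. AKK 1 held 3.92% mitochondrial reads, against 1.64 to 2.33% in the other 3 libraries, and PBS 1 held the most muscle RNA, with a summed level of 9 skeletal muscle genes of 2.51 and 2.67 CPM (counts per 1000000 reads, with TMM scaling between libraries) in AKK 1 and AKK 2, against 308 and 10.9 CPM in PBS 1 and PBS 2. The AKK and PBS tables are named by different schemes, and if the schemes stand for different cohorts, these cannot be told apart from the feeding. Among 20 general macrophage genes, all of which passed the filter on low counts, the summed level was 543 and 538 CPM in AKK 1 and AKK 2, against 774 and 607 CPM in PBS 1 and PBS 2. Of the defining markers of macrophages, Cd68, a lysosomal glycoprotein, read 19.0 and 16.6 CPM in AKK against 18.1 and 17.0 CPM in PBS, and Adgre1, the gene of F4/80, read 2.53 and 4.69 CPM in AKK against 10.2 and 6.06 CPM in PBS. Macrophage RNA was thus present in every library, with a lower summed level in both AKK libraries.

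Of the 10 state genes, 9 passed the filter, and edgeR called 0 of them higher and 0 lower in AKK at an adjusted p under 0.05. Over all 17479 genes tested it called 0.00572% higher and 0% lower. At an unadjusted p under 0.05, 4 state genes were lower (Mpeg1, Chil3, Csf1r and Gpnmb) and 1 was higher (Spp1), where the share over all genes was 8.62% lower and 6.7% higher. DESeq2 called 2 state genes lower, Mpeg1 and Chil3, and 0 higher, against 3.04% lower and 2.08% higher over the 17140 genes to which it gave an adjusted p, and limma-voom called 0. Both AKK libraries lay below both PBS libraries for 6 state genes and above both for 2 (Spp1 and Nos2), where 24.7% and 26.7% of all genes did so and 51.4% did so in either direction. The groups overlapped for Trem2. The median log2 fold change of the 9 was -0.46, beside 0.02 over all genes tested. It was -0.65 without AKK 1, -0.30 without AKK 2, -0.23 without PBS 1 and -0.70 without PBS 2. With 2 libraries a group, an exact permutation test of a single gene cannot give a two-sided p below 0.333.

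**Figure D1:**
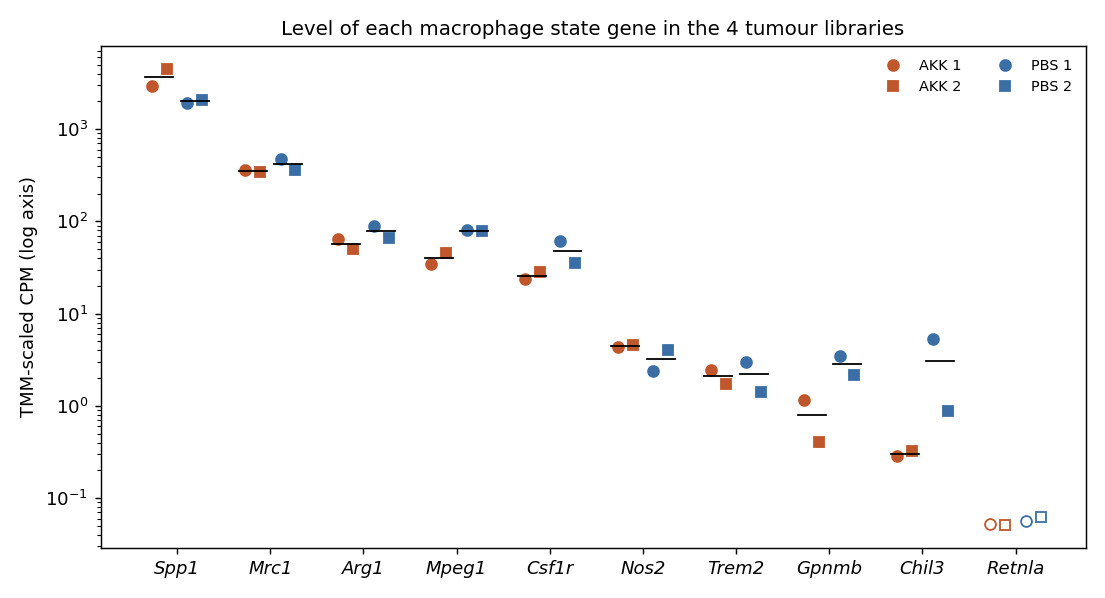
Level of the 10 state genes in each library, as CPM scaled by TMM on a log axis, with AKK libraries in orange and PBS libraries in blue. Filled points are libraries with at least 3 reads, open points mark fewer than 3 reads and stand at the level that 3 reads would have, and black lines are group means. Spp1 lies far above the other genes, and the AKK points of Mpeg1, Csf1r, Gpnmb and Chil3 lie below their PBS points.

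Levels differed widely between state genes. Per kilobase of exon, with exon lengths from GENCODE M21, Spp1 averaged 2253 CPM per kb in AKK and 1213 CPM per kb in PBS. Mrc1 followed with 55.0 CPM per kb in AKK and 65.4 in PBS, and Arg1 with 25.5 in AKK and 35.1 in PBS. Mpeg1 had 9.19 CPM per kb in AKK and 18.3 in PBS, and Csf1r 4.47 in AKK and 8.36 in PBS. Below these came Nos2 at 1.01 in AKK and 0.730 in PBS, Trem2 at 0.427 in AKK and 0.448 in PBS, and Gpnmb at 0.121 in AKK and 0.435 in PBS. Chil3 lay at 0.186 CPM per kb in AKK and 1.90 in PBS. From Spp1 down to Csf1r the order was the same in both groups, and within a group no gene's libraries overlapped those of its neighbour. Below Csf1r, the AKK libraries gave the order Nos2, Trem2, Chil3 and Gpnmb, of which only Chil3 and Gpnmb overlapped, and in the PBS libraries Chil3 came first and every neighbour overlapped the next. For scale, Cd68 averaged 14.2 CPM per kb in AKK and 13.9 in PBS, so that Mrc1 stood above this general marker per unit length and Trem2 and Gpnmb far below it.

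Csf1r encodes the receptor on which macrophages depend for survival. It read 23.5 and 28.1 CPM in AKK 1 and AKK 2, against 61.5 and 35.03 CPM in PBS 1 and PBS 2. Both AKK libraries were low, and PBS 1 stood well above PBS 2. The log2 fold change was -0.90 (SE 0.30, adjusted p = 0.282 in edgeR and 0.132 in DESeq2), and it was -0.44 without PBS 1. The gene overlaps Hmgxb3 on the other strand over 873 bp in GENCODE M21, and 735 and 559 reads in AKK and 452 and 419 in PBS lay on that strand, which the own-strand column does not count. Its ligand genes did not pass. Csf1 read 26.0 and 22.3 CPM in AKK against 23.5 and 20.1 CPM in PBS, and Il34 read 34.7 and 41.2 CPM in AKK against 42.6 and 44.6 CPM in PBS. The values of Csf1 overlapped between the groups, while Il34, like the receptor gene, lay lower in both AKK libraries. Of its relatives among receptor tyrosine kinases, Pdgfra, a growth factor receptor of fibroblasts, read 8.95 and 7.98 CPM in AKK against 19.8 and 12.6 CPM in PBS (edgeR adjusted p = 0.277). Pdgfrb, the receptor of pericytes and fibroblasts, read 17.0 and 23.8 CPM in AKK against 51.1 and 27.8 CPM in PBS (edgeR adjusted p = 0.297). In both, as in Csf1r, the AKK libraries were low and PBS 1 was the highest.

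Mpeg1, the gene of perforin-2, a pore-forming protein with which macrophages attack engulfed bacteria, had the smallest p of the 10. It read 34.3 and 45.3 CPM in AKK 1 and AKK 2, against 80.3 and 78.2 CPM in PBS 1 and PBS 2. The PBS libraries agree within 1.03-fold, and both AKK libraries lay below them, with a log2 fold change of -0.99 (SE 0.21, adjusted p = 0.186 in edgeR, 0.00879 in DESeq2). Leaving out any single library gave -1.21 to -0.80, and edgeR called it lower with no filter on low counts (adjusted p = 0.0399). It ranked 302nd by p among the 17479 genes tested.

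Arg1 encodes arginase 1, which splits arginine into ornithine and urea. It read 63.9 and 49.8 CPM in AKK 1 and AKK 2, against 90.1 and 66.4 CPM in PBS 1 and PBS 2. The groups did not overlap, but AKK 1 lay close to PBS 2, and the log2 fold change of -0.46 (SE 0.24) did not pass (edgeR adjusted p = 0.399). Of 14 hepatocyte genes that passed the filter, 13 lay higher in both AKK libraries, edgeR called 1 higher and DESeq2 12. Of these, Fgb, Apoc3, Cps1, Tat and Cyp2e1 had fewer than 10 reads in each PBS library and owed their place after filtering to the AKK libraries. Serpina1b, Ahsg and Ttr were near 0 in PBS 1 (0, 0.0597 and 0.142 CPM per kb) and also passed only with the AKK libraries. The count is therefore a description. The gene edgeR called, Fgb, the beta chain of fibrinogen, read 75.4 and 50.8 CPM in AKK against 0.112 and 0.189 CPM in PBS (edgeR adjusted p = 0.0160). Cps1, which carries out the first step of the urea cycle in hepatocytes, had 130 and 22 reads in AKK against 3 and 1 reads in PBS. Hpx, the gene of the haem carrier hemopexin, had reads in every library, at 123 and 45.4 CPM in AKK against 3.43 and 8.41 CPM in PBS (adjusted p = 0.182 in edgeR). Albumin (Alb) read 156 and 25.4 CPM in AKK against 0.2999 and 0.988 CPM in PBS. Arg1 thus lay lower in both AKK libraries, while the hepatocyte genes named here lay higher in both. Apob, of the same list, overlapped between the groups, at 11.8 and 33.6 CPM per kb in AKK against 17.3 and 41.9 in PBS. The part of hepatocytes in the Arg1 level was not tested.

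Mrc1 encodes the mannose receptor CD206, which takes up glycoproteins and is widely used as a marker of the alternative state. It read 360 and 341 CPM in AKK 1 and AKK 2, against 470 and 363 CPM in PBS 1 and PBS 2. AKK 1 and PBS 2 differed by little, PBS 1 stood above the other 3 libraries, and the log2 fold change of -0.25 (SE 0.23, adjusted p = 0.617 in edgeR) was -0.06 without PBS 1. The sinusoidal receptor gene Stab2, a defining marker of the liver endothelium that also makes CD206, read 2.65 and 0.822 CPM in AKK against 0.131 and 0.126 CPM in PBS. Over the 9 genes of that endothelial list the summed level was 78.2 and 55.5 CPM in AKK against 117 and 65.7 CPM in PBS, and Clec4g was at 0 reads in both PBS libraries. Other genes of that list lay the other way. Flt4, a growth factor receptor of lymphatic and sinusoidal endothelium, read 2.80 and 2.55 CPM in AKK against 9.60 and 6.50 CPM in PBS (adjusted p = 0.199 in edgeR and 0.00202 in DESeq2). Lyve1, a hyaluronan receptor, read 3.08 and 0.993 CPM in AKK against 8.98 and 3.28 CPM in PBS, and Stab1, a scavenger receptor, read 22.2 and 16.2 CPM in AKK against 41.8 and 18.1 CPM in PBS. Of the 8 genes tested, 3 were higher and 5 lower by their fold change. Stab2, counted among the higher ones, passed the filter only with the AKK libraries, so that this count is a description. The part of these cells in the Mrc1 level was not tested.

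Chil3 encodes Ym1, a chitinase-like protein of alternatively activated mouse macrophages. It had 16 and 19 reads in AKK 1 and AKK 2, against 283 and 42 reads in PBS 1 and PBS 2. That was 0.283 and 0.325 CPM in AKK against 5.30 and 0.883 CPM in PBS. The AKK libraries were alike, with 95% Poisson intervals of 9.15 to 26.0 and 11.4 to 29.7 reads, while PBS 1 held 6.01 times the CPM of PBS 2, far outside counting error (251 to 318 against 30.3 to 56.8 reads). The log2 fold change was -3.34 (SE 0.92), the largest of the 9, with an adjusted p of 0.235 in edgeR and 0.00602 in DESeq2. It was -1.53 without PBS 1, with an edgeR adjusted p of 0.628, and -4.14 without PBS 2, where edgeR called it (adjusted p = 0.0139). In PBS 1 the monocyte and macrophage gene F13a1, a subunit of coagulation factor XIII, was likewise high, at 1.95 and 1.56 CPM in AKK against 11.2 and 3.93 CPM in PBS. Neutrophils of the mouse bone marrow are a known source of Ym1. The 10 neutrophil genes listed had a summed level of 12.3 and 6.73 CPM in AKK against 6.49 and 4.16 CPM in PBS, with S100a8, a calcium-binding protein gene of neutrophils, at 1.65 and 0.993 CPM in AKK against 0.844 and 0.505 CPM in PBS and Ly6g at 0 reads in all 4 libraries. Retnlg, a resistin-like gene of granulocytes, had 3 and 1 reads in AKK against 23 and 8 reads in PBS. Of 1490 stretches of 50 bases in the longest protein-coding Chil3 transcript, 29.4% also occur in transcripts of Chil4 or Gm6522, and of its stretches of 151 bases, the read length, 0% do. Chil4 had 2 reads over the 4 libraries.

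Retnla, which encodes the secreted protein RELM alpha (FIZZ1) of alternatively activated macrophages, had 0 and 0 reads in AKK 1 and AKK 2, and 0 and 1 in PBS 1 and PBS 2. A count of 0 allows up to 0.0531 and 0.0514 CPM in AKK 1 and AKK 2, by 3 reads and for counting error only. With 1 read among 215800281, the gene was not detectable beyond that depth and no comparison between the groups could be made. Of the 4 genes of the alternative state, Mrc1 and Arg1 were thus abundant, Chil3 was scarce and Retnla had a single read.

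The promoters of the 4 genes that show the range of the results are given below from RefSeq on GRCm38.p6, each 250 bases before to 50 bases after the annotated start and read 5′ to 3′ on the gene's strand. Spp1 is the most abundant member and lay higher in both AKK libraries, Mpeg1 and Chil3 are the members that DESeq2 called lower, and Retnla is the undetected one. They lie at chr5:104434861-104435160 (plus strand), chr19:12460520-12460819 (plus), chr3:106167515-106167814 (minus) and chr16:48842359-48842658 (plus), and the first of the 2 entries of Spp1 is shown. Capitals mark matches to the motifs of STAT6 and PU.1 given after the sequences.
Spp1: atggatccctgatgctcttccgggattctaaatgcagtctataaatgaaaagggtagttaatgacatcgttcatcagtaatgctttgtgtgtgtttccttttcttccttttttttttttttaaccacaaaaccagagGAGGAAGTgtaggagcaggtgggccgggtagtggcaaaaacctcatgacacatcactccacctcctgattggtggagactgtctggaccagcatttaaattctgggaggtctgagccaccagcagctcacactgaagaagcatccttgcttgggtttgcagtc
Mpeg1: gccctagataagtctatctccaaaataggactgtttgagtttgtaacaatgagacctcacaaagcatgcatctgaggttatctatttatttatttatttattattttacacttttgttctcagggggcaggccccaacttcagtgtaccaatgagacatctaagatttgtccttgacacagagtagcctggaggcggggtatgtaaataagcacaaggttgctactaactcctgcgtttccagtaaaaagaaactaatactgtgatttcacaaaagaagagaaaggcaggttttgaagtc
Chil3: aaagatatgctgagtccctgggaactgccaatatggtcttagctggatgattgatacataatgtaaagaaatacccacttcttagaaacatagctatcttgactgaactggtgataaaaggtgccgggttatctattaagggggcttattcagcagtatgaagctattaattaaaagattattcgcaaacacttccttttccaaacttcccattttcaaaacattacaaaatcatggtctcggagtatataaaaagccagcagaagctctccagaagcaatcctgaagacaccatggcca
Retnla: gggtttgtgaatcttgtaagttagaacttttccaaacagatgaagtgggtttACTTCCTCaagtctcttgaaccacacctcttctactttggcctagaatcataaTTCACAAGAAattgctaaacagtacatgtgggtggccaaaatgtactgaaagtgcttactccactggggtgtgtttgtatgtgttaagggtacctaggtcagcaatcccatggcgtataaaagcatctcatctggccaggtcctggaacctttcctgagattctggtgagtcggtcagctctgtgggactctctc

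The 4 motifs were searched on both strands: TTC, any 4 bases and GAA for STAT6, the factor that interleukin 4 activates, GAGGAAGT for PU.1, the master regulator of macrophages, TCACGTG for MITF and TFE factors, which drive lysosomal genes, and GGGA, any base and TTTCC for NF-kappa B. Promoters were listed for 7 of the 10 genes (8 entries), and none for Arg1, Nos2 and Csf1r. The STAT6 letters occur in 6.95% of 32851 promoters of 300 bases, the PU.1 letters in 3.20%, the MITF letters in 3.77% and the NF-kappa B letters in 0.411%. Among the 8 entries the STAT6 letters were found in that of Retnla, 145 to 136 bases before the start. The STAT6 motif reads the same on both strands, so that any match to it is on both. The PU.1 letters were found in Retnla at 198 to 191 bases before the start on the other strand, and in Spp1 at 113 to 106 bases before the start. The matches do not overlap each other. The other 2 motifs were found in 0 of the 8 entries, and Mpeg1 and Chil3 held no match. Retnla, with matches to both motifs, was the member with a single read.

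Spp1 encodes osteopontin, a secreted phosphoprotein that binds integrins and CD44. It read 2915 and 4511 CPM in AKK 1 and AKK 2, against 1930 and 2069 CPM in PBS 1 and PBS 2. The AKK libraries were both above the PBS libraries, which were close to each other, and AKK 2 held 1.55 times the CPM of AKK 1. It took 0.298 and 0.446% of all gene reads in AKK against 0.196 and 0.201% in PBS, ranking 14th and 7th of all genes by reads in AKK and 21st and 25th in PBS. The log2 fold change was 0.89 (SE 0.36), with an adjusted p of 0.323 in edgeR and 0.0706 in DESeq2, and leaving out single libraries gave 0.54 (without AKK 2) to 1.18 (without AKK 1). Per read of Cd68 there were 154 and 271 reads of Spp1 in AKK, against 107 and 122 in PBS. Krt19, a keratin of bile duct and carcinoma cells, read 1752 and 1160 CPM in AKK against 788 and 1952 CPM in PBS. The summed level of 9 epithelial genes was 6272 and 5943 CPM in AKK against 3443 and 7012 CPM in PBS. In GENCODE M21 Spp1 overlaps Gm42793 on the same strand over 1252 bp, and 2.28% of the 151-base stretches of its transcript occur there too. The effect of this on the Spp1 counts was not tested. The share of Spp1 reads from epithelial or tumour cells was not tested. Its receptor gene Cd44 read 892 and 1275 CPM in AKK against 1254 and 1063 CPM in PBS. Of its integrin receptors, Itgb3 read 29.9 and 46.6 CPM in AKK against 29.0 and 22.3 CPM in PBS (edgeR adjusted p = 0.383).

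Trem2 encodes a receptor for lipids and lipoproteins that signals through the adaptor encoded by Tyrobp. It read 2.48 and 1.75 CPM in AKK 1 and AKK 2, against 2.999 and 1.43 CPM in PBS 1 and PBS 2, from 140 and 102 reads in AKK and 160 and 68 in PBS. The PBS values enclosed both AKK values, with a log2 fold change of -0.07 (SE 0.53, adjusted p = 0.958 in edgeR), and its sign turned in 3 of 13 other settings. Tyrobp read 14.1 and 9.95 CPM in AKK against 12.4 and 9.86 CPM in PBS. The reads of Trem2 per read of Tyrobp were 0.175 and 0.176 in AKK against 0.242 and 0.145 in PBS.

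Gpnmb encodes a membrane glycoprotein of lysosome-rich macrophages, osteoclasts and pigment cells. It had 66 and 24 reads in AKK 1 and AKK 2, against 186 and 104 reads in PBS 1 and PBS 2, which was 1.17 and 0.411 CPM in AKK against 3.49 and 2.19 CPM in PBS. Both AKK libraries were low and their 95% Poisson intervals, 51.0 to 84.0 and 15.4 to 35.7 reads, did not reach that of PBS 2 (85.0 to 126 reads). The log2 fold change was -1.84 (SE 0.65), with an adjusted p of 0.287 in edgeR and 0.0919 in DESeq2. It was -2.78 without AKK 1 and -1.28 without AKK 2. There were 0.471 and 0.235 Gpnmb reads per Trem2 read in AKK, against 1.16 and 1.53 in PBS. The 3 genes named for the lipid-associated state thus had different patterns, with Spp1 above, Gpnmb below and Trem2 overlapping the PBS libraries.

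Nos2 encodes the inducible nitric oxide synthase. It read 4.35 and 4.54 CPM in AKK 1 and AKK 2, against 2.36 and 4.08 CPM in PBS 1 and PBS 2. The AKK libraries were alike and lay just above PBS 2, and the log2 fold change of 0.47 (SE 0.43) did not pass (edgeR adjusted p = 0.613). It was 0.12 without PBS 1. The reads of Nos2 per read of Arg1 were 0.0681 and 0.0912 in AKK against 0.0262 and 0.0614 in PBS, where PBS 2 lay near AKK 1.

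**Figure D2:**
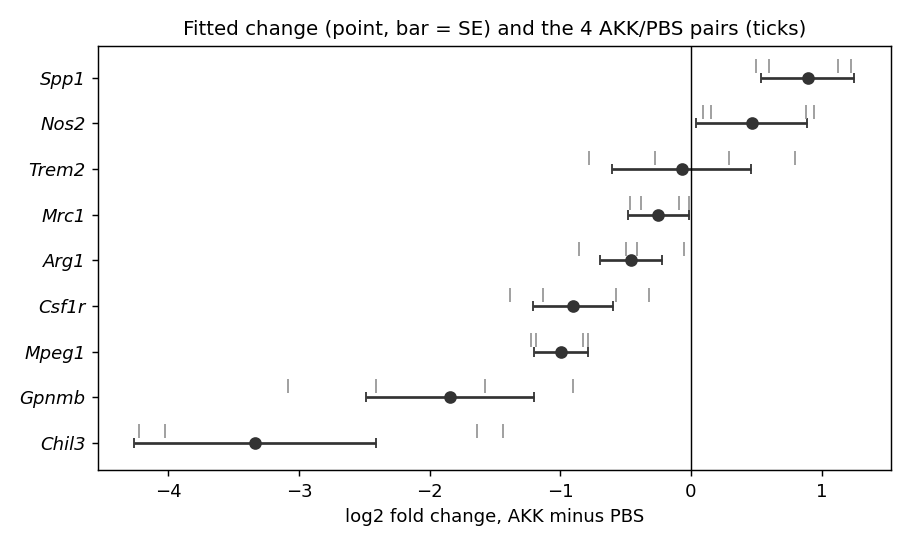
Log2 fold change of the 9 state genes tested, AKK minus PBS, on the horizontal axis. Points are the edgeR fit with bars of 1 SE, and the 4 grey ticks above each point are the log2 ratios of the 4 AKK and PBS library pairs. The ticks of Mpeg1 lie close together at about -1, those of Chil3 fall into 2 pairs according to the PBS library, and those of Trem2 lie on both sides of 0.

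Set against the summed level of the 20 general macrophage genes in the same library, the order of the groups differed for some members. Mpeg1 stood at 6.31 and 8.43% of that sum in AKK against 10.4 and 12.9% in PBS, and Csf1r at 4.34 and 5.22% in AKK against 7.94 and 5.78% in PBS. Gpnmb (0.215 and 0.0764% in AKK against 0.451 and 0.361% in PBS) and Chil3 (0.0521 and 0.0605% in AKK against 0.686 and 0.146% in PBS) were also below both PBS libraries on this scale. Spp1 stood at 537 and 838% in AKK against 249 and 341% in PBS. Arg1 no longer separated the groups, at 11.8 and 9.25% in AKK against 11.6 and 10.95% in PBS. Mrc1, lower in CPM, lay above both PBS libraries on this scale, at 66.3 and 63.3% in AKK against 60.8 and 59.9% in PBS. These ratios are descriptions with no test, and the Arg1 and Mrc1 orders depended on the scale used.

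**Figure D3:**
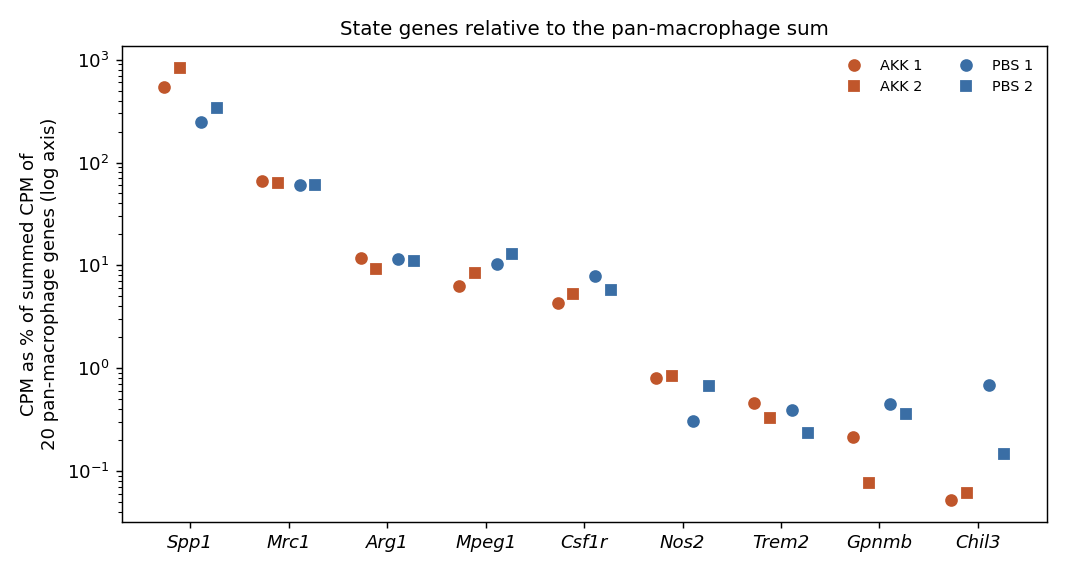
CPM of 9 state genes as a percentage of the summed CPM of 20 general macrophage genes in the same library, on a log axis, with AKK in orange and PBS in blue. Mpeg1, Csf1r, Gpnmb and Chil3 lie lower in both AKK libraries and Spp1 higher, while the Arg1 points overlap.

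The other genes of these states were described from lists chosen by function. For every list, the shares over all genes stand beside the counts. Of all genes tested, 26.7% lay higher and 24.7% lower in both AKK libraries. At an unadjusted p under 0.05 in edgeR, 6.7% were higher and 8.62% lower. DESeq2 called 2.08% higher and 3.04% lower. Among the 20 general macrophage genes, 11 lay lower and 2 higher in both AKK libraries, and the median log2 fold change was -0.41 (-0.12 without PBS 1), and edgeR called 0, with 1 higher and 4 lower at an unadjusted p under 0.05. DESeq2 called 1 higher and 1 lower. It called Cd14, the co-receptor for bacterial lipopolysaccharide, higher (40.9 and 30.3 CPM in AKK against 17.1 and 19.8 CPM in PBS, adjusted p = 0.0367). Cd14 thus lay in the other direction from most of this list.

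Of 19 tested genes of alternative activation outside the 10, 6 lay lower and 4 higher in both AKK libraries, with a median of -0.15 (-0.33 without AKK 1, -0.09 without AKK 2 and -0.00107 without PBS 2). EdgeR called 0 (1 higher and 3 lower at an unadjusted p under 0.05) and DESeq2 1 in each direction. Il1rn, the interleukin 1 receptor antagonist, read 66.1 and 73.0 CPM in AKK against 14.4 and 29.5 CPM in PBS (log2 fold change 1.66, SE 0.35, adjusted p = 0.188 in edgeR and 0.00154 in DESeq2). Il13ra1, a chain of the receptor for interleukins 4 and 13, read 89.5 and 84.6 CPM in AKK against 135 and 154 CPM in PBS (-0.73, adjusted p = 0.211 in edgeR and 0.0360 in DESeq2). The partner chain Il4ra read 265 and 345 CPM in AKK against 238 and 264 CPM in PBS, and Stat6 read 107 and 120 CPM in AKK against 129 and 123 CPM in PBS. The cytokine gene Il4 had 0 reads in all 4 libraries, and Il13 had 1 read, in AKK 1. Over the 24 tested genes of ligands, receptors and signal carriers, 5 lay higher and 7 lower in both AKK libraries, with a median of 0.05, which turned negative without AKK 2 (-0.01), PBS 1 (-0.10) or PBS 2 (-0.10) and was 0.0055 without AKK 1. EdgeR called 0 (0 higher and 1 lower at an unadjusted p under 0.05), and the 1 gene that DESeq2 called lower was Il13ra1. Of 28 relatives of the state genes by family, 18 passed the filter, 4 of them higher and 6 lower in both AKK libraries, and edgeR and DESeq2 called 0 (0 higher and 2 lower at an unadjusted p under 0.05 in edgeR).

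The 23 tested genes of the lipid-associated state split evenly, with 5 higher and 6 lower in both AKK libraries and a median of -0.16 (0.01 without PBS 1 and -0.30 without PBS 2). EdgeR called 0, with 3 higher and 5 lower at an unadjusted p under 0.05, and DESeq2 called 1 higher and 3 lower. The higher gene was Lpl, lipoprotein lipase, at 62.6 and 29.9 CPM in AKK against 14.8 and 16.5 CPM in PBS (log2 fold change 1.56, adjusted p = 0.00589 in DESeq2 and 0.200 in edgeR). Fabp5, a fatty acid carrier, read 16.6 and 13.9 CPM in AKK against 26.5 and 32.2 CPM in PBS (DESeq2 adjusted p = 0.0200). The fatty acid uptake gene Cd36 read 1.47 and 0.617 CPM in AKK against 4.54 and 3.22 CPM in PBS (0.0286 in DESeq2). The cholesterol ester hydrolase gene Nceh1 read 24.1 and 20.1 CPM in AKK against 63.3 and 33.8 CPM in PBS (0.0480 in DESeq2). Cd36 was also the gene of the macrophage lists nearest to Gpnmb in its pattern over the 4 libraries.

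Of 17 tested genes of classical activation outside Nos2, 4 lay higher and 1 lower in both AKK libraries, with a median of 0.14 (0.05 without AKK 1, 0.34 without AKK 2 and 0.23 without PBS 2), and edgeR and DESeq2 each called 0, with 0 at an unadjusted p under 0.05 in edgeR. Acod1, which makes itaconate, read 1.81 and 0.617 CPM in AKK against 0.2999 and 0.673 CPM in PBS, and the cystine carrier gene Slc7a11 read 35.6 and 33.4 CPM in AKK against 28.2 and 119 CPM in PBS. For both genes the groups overlapped. Ifng had 0.407 and 0.274 CPM in AKK against 0.0562 and 0.421 CPM in PBS.

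**Figure D4:**
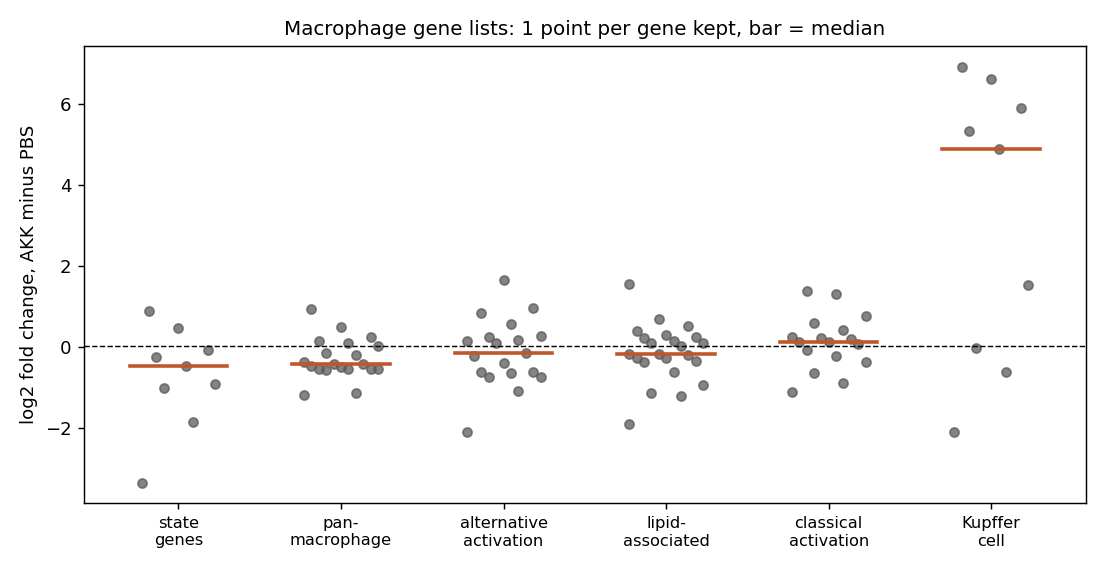
Log2 fold change, AKK minus PBS, of the genes tested in 6 lists, with 1 point per gene, the median of each list as an orange bar and the median of all genes as a dashed line. The medians are -0.46 for the state genes, -0.41 for the general macrophage genes, -0.15, -0.16 and 0.14 for the 3 state lists, and 4.87 for Kupffer cell markers, which rests on 5 genes with at most 13 reads in either PBS library.

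The other genes of arginine metabolism lay in both directions. Of 15 tested, 5 lay higher and 7 lower in both AKK libraries, where 26.7% and 24.7% of all genes did so. Among the 15, edgeR called 0 (3 higher and 3 lower at an unadjusted p under 0.05), and DESeq2 called 2 higher and 2 lower. The higher ones were Cps1, given above, and Ass1, argininosuccinate synthase, at 5.34 and 3.39 CPM in AKK against 1.72 and 1.26 CPM in PBS (DESeq2 adjusted p = 0.0362), both enzymes that hepatocytes make in quantity. The lower ones were Ddah1, which breaks down methylated arginine that inhibits nitric oxide synthases, at 13.6 and 19.3 CPM in AKK against 28.7 and 41.6 CPM in PBS (0.0312 in DESeq2), and Oat, ornithine aminotransferase, at 4.94 and 5.14 CPM in AKK against 10.4 and 9.67 CPM in PBS (0.0270 in DESeq2). The second arginase gene, Arg2, read 0.832 and 0.445 CPM in AKK against 0.375 and 0.189 CPM in PBS. The endothelial synthase gene Nos3 read 3.17 and 2.14 CPM in AKK against 4.24 and 3.30 CPM in PBS.

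Markers of the resident macrophages of the liver, the Kupffer cells, differed among themselves. Of 9 markers, 6 lay higher and 0 lower in both AKK libraries, and edgeR called 0 and DESeq2 4 higher, with 6 higher at an unadjusted p under 0.05 in edgeR. Of the 6, Clec4f, Vsig4, Cd5l, Timd4 and Marco had at most 13 reads in either PBS library and owed their place after filtering to the AKK libraries, so that the count is a description. For Slc40a1, Folr2 and Cd163 the groups overlapped. The summed level of the 9 was 33.0 and 24.9 CPM in AKK against 19.0 and 18.9 CPM in PBS. Slc40a1, the iron exporter ferroportin, gave much of it, at 8.71 and 19.7 CPM in AKK against 12.5 and 16.2 CPM in PBS. Folr2, a folate receptor of resident macrophages, read 0.690 and 0.548 CPM in AKK against 1.35 and 0.526 CPM in PBS. Clec4f, their defining lectin gene, had 112 and 23 reads in AKK against 1 and 0 reads in PBS. Vsig4, a complement receptor of these cells, read 0.867 and 0.428 CPM in AKK against 0.0187 and 0.0210 CPM in PBS (adjusted p = 0.182 in edgeR), where the PBS values stand on single reads. Cd163, a haemoglobin scavenger receptor shared with alternatively activated macrophages, read 0.902 and 0.171 CPM in AKK against 3.88 and 0.694 CPM in PBS. It was the gene nearest to Chil3 over the 4 libraries, and PBS 1 held the highest value of both.

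By Euclidean distance between mean-centred log2 CPM over the 4 libraries, among 87 other genes of the macrophage lists, near genes were as follows. Csf1r lay nearest to Msr1, a scavenger receptor (16.8 and 22.2 CPM in AKK against 39.2 and 25.5 CPM in PBS, distance 0.222). Mpeg1 lay close to the chemokine gene Ccl24 (14.2 and 20.7 CPM in AKK against 28.7 and 25.6 CPM in PBS, 0.376). Arg1 and Mrc1 shared the neighbour Ctsl, the gene of cathepsin L (841 and 679 CPM in AKK against 1046 and 781 CPM in PBS, 0.197 and 0.166). Trem2 lay nearest to Apoe, a lipoprotein ligand of TREM2 (303 and 255 CPM in AKK against 444 and 226 CPM in PBS, 0.230). Gpnmb lay nearest to Cd36 (0.169), and Chil3 had no near neighbour, its nearest being Cd163 at 1.00. With 4 libraries many genes have like patterns, and the distances are descriptions.

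**Figure D5:**
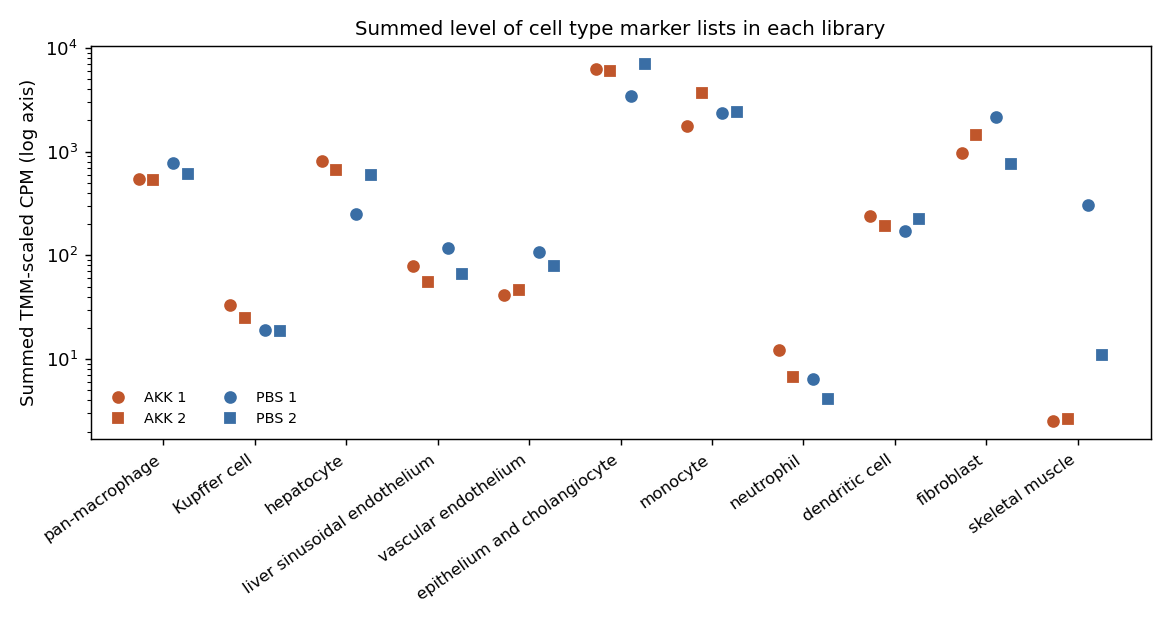
Summed CPM of 11 cell type marker lists in each library on a log axis, with AKK in orange and PBS in blue. General macrophage and vascular endothelial sums are lower in both AKK libraries, and the muscle sum of PBS 1 (308 CPM) stands far above the others. Kupffer cell sums (of which Slc40a1 is most in all but AKK 1) and hepatocyte sums (of which Apob is most in all but AKK 1) are higher in both AKK libraries.

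Summed levels of other cell types separated the groups for some lists and overlapped for others. The summed level of 8 vascular endothelial genes was 41.3 and 46.2 CPM in AKK against 109 and 78.6 CPM in PBS, with 7 of 8 genes lower in both AKK libraries, 0 called by edgeR (5 lower at an unadjusted p under 0.05) and 4 called lower by DESeq2. Vwf, the von Willebrand factor of endothelium, read 0.743 and 1.70 CPM in AKK against 15.01 and 11.6 CPM in PBS (adjusted p = 0.182 in edgeR). Postn, the matrix protein periostin of fibroblasts, read 11.1 and 36.8 CPM in AKK against 255 and 111 CPM in PBS (adjusted p = 0.192 in edgeR). Both lay lower in each AKK library. The 9 fibroblast genes summed to 972 and 1458 CPM in AKK against 2133 and 752 CPM in PBS. The monocyte list summed to 1769 and 3631 CPM in AKK against 2346 and 2413 CPM in PBS, most of it fibronectin (Fn1), and its defining gene Ly6c2 had 32 and 5 reads in AKK against 1 and 4 reads in PBS. Hepatocyte genes summed to 810 and 665 CPM in AKK against 249 and 601 CPM in PBS, the PBS part being mostly Apob (241 and 584 CPM). The sum of AKK 2 was also mostly Apob, which overlapped between the groups, while that of AKK 1 was not. Dendritic cell genes summed to 240 and 192 CPM in AKK against 172 and 226 CPM in PBS, with 0 called by edgeR or DESeq2. PBS 1, highest in muscle and fibroblast sums, was also the highest library for Csf1r, Mpeg1, Arg1, Mrc1, Trem2, Gpnmb and Chil3. Without it the log2 fold changes were -0.97 for Mpeg1, -0.23 for Arg1, -1.48 for Gpnmb and 0.84 for Spp1, beside those given above for the other genes. EdgeR called 0 genes in the sinusoidal, epithelial, monocyte, neutrophil, fibroblast and muscle lists. At an unadjusted p under 0.05 it counted 1 higher and 1 lower, 1 and 0, 1 and 1, 0 and 0, 0 and 4, and 0 and 7 in that order, and DESeq2 called 1 higher and 1 lower, 1 and 0, 1 and 1, 0 and 0, 0 and 2, and 0 and 6. In these lists some genes passed the filter through a single group. Epcam, of the epithelial list, read 1.02 and 1.54 CPM per kb in AKK against 0.0598 and 0.00958 in PBS. Like Stab2, it passed only with the AKK libraries. Muscle genes such as Myh4, at 0 CPM per kb in both AKK libraries, passed only with the PBS libraries. The counts of these lists are therefore descriptions. The part of these cell types in the levels of the state genes was not tested.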

How the data were processed

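Total RNA of liver tumours was sequenced as pairs of 151 bp reads, per the labels' protocols. The authors deposited unnormalized read counts for each gene, laid out as STAR writes them. STAR 2.5.2 and RSEM 1.2.31 are listed in the submitters' processing notes, and no build or annotation is given in the sources used here. Own-strand counts were used, which held 95.4 to 96.2% of reads assigned by strand. The 4 summary rows were left out, with 8.97 to 12.3% unmapped, 4.20 to 6.66% multimapping, 11.4 to 13.5% outside genes and 1.18 to 1.37% ambiguous reads. Symbols were matched for 48058 of 48526 identifiers, without versions.

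Genes were tested with edgeR 4.0.16 in R 4.3.3 (legacy quasi-likelihood test, two-sided, TMM scaling, filterByExpr, group as the only term, Benjamini-Hochberg adjustment at 0.05 over 17479 genes). Log2 fold changes are AKK minus PBS with a prior count of 0.125, and SEs come from the F statistic. The fit was tested on simulated counts. Alternatives included DESeq2 1.42.0 and limma 3.58.1. Intervals and the floor of 3 reads cover counting error only. The distance between patterns used log2(CPM + 0.5). The state genes, the 17 gene lists and the tests were chosen with earlier results of these data known. The symbol Ear11 was not matched and is not used here. Genes named beyond the 10 are, per list, those past the threshold in edgeR or the 2 with the smallest p, set markers and relatives, and the nearest genes. The others (Oat, Ass1, Cd36, Nceh1, Apob, Fn1, Ly6c2, Ly6g, Clec4g, Lyve1, Stab1, Hpx, Apoc3, Tat, Cyp2e1, Serpina1b, Ahsg, Ttr, Flt3, Kit, Timd4, Marco, Slc40a1, Epcam, Myh4, Gm42793, Ifng, Il4, Il13 and Gm6522) were chosen after their values were seen. Other genes that the rule takes from the marker lists are described by the sums and counts of their lists. Exon lengths and transcripts are those of GENCODE M21.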

Additional observations from a re-analysis of the deposited data

How the results depend on the processing

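edgeR called 0 state genes higher and 0 lower, and 1 and 0 of all genes. With no filter on low counts it called 2 state genes lower (Chil3 and Mpeg1) and 291 genes higher and 340 lower. DESeq2 called the same 2 and 357 and 521 genes. The threshold of 0.1 gave 3 higher genes, upper-quartile scaling 3, the edgeR 4 form 4 and limma-voom 0. With single libraries left out, where the lone library is assumed to vary like the others, 0 to 1 state genes were lower (Chil3 without PBS 2) and 0 to 149 genes were higher and 0 to 225 lower, with 0 and 0 when an AKK library was left out, 149 and 130 without PBS 1 and 99 and 225 without PBS 2. With the replicate number as a block, which the labels do not say pairs the samples, 128 genes were higher and 81 lower, 0 of them state genes, and same-numbered deviations correlated with r = -0.04 across genes. Trem2 turned to 0.00235 with this block, 0.15 without AKK 2 and 0.56 without PBS 1 (-0.54 to 0.56 over the single libraries left out). The other 8 state genes kept their direction in all 13 settings in which they were tested (12 for Chil3, which the filter of 1 CPM in 2 libraries removes). The causes were not tested. Retnla had too few reads to be tested, and Chil3, Gpnmb, Trem2 and Nos2 had at most 283 reads a library.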
